A study of Rattus norvegicus with 12 samples.

Results

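The free walls of the LV and the RV of sham-operated neonatal hearts were compared at P7 in 6 of the 12 libraries of the series, 3 from sham LV and 3 from sham RV, chosen by their labels. All came from Sprague–Dawley rats (strain SD in the labels) that were sham-operated on P1, the control for the fistula surgery of the other rats. Myocardium was taken from the free wall of each ventricle at P7 and flash frozen, and polyadenylated RNA was sequenced. The other 6 libraries, 3 VO LV and 3 VO RV, came from rats of the same strain and age given a fistula between the abdominal aorta and the inferior vena cava on P1, which raises the volume load of both ventricles. They were used as another set of LV and RV walls in which the same genes were read, and they also entered the fit that tested the sham walls. The labels do not say whether libraries came from separate animals, whether the LV and RV of 1 number came from the same heart, or whether tissue was pooled, so p-values measure the spread between these libraries only.

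As background, the LV pumps into the systemic circulation and the RV into the lungs. After birth, pulmonary resistance falls and systemic resistance rises, so that the LV wall carries the greater pressure and thickens while the RV wall does not. The muscle of the LV free wall derives mainly from the first heart field, where the transcription factor Hand1 is active, and that of the RV from the second heart field. In the first postnatal weeks rodent cardiomyocytes leave the cell cycle, switch from glucose towards fatty acids and build the membrane systems that couple excitation to contraction.

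Promoter windows are shown for 5 genes, with letters that match motifs of cardiac transcription factors in capitals. They were picked by hand from 85 named genes that passed the thresholds of the comparison and had a window. The windows come from RefSeq (build GRCr8) and run from 250 bases before to 50 bases after the listed start. They were searched on both strands for the GATA motif (AGATAA or TGATAA), the M-CAT motif of TEAD factors (CATTCC), and, by name, the MEF2 motif and the CArG box of Srf. Nppb and Hand1 were higher in the LV, and Synpo2l, Xirp1 and Srf were lower. The windows lie at chr5:163699758-163700057 (plus strand, Nppb), chr10:42509635-42509934 (minus strand, Hand1), chr15:3684760-3685059 (plus strand, Synpo2l), chr8:128634962-128635261 (minus strand, Xirp1) and chr9:21923826-21924125 (plus strand, Srf).
Nppb: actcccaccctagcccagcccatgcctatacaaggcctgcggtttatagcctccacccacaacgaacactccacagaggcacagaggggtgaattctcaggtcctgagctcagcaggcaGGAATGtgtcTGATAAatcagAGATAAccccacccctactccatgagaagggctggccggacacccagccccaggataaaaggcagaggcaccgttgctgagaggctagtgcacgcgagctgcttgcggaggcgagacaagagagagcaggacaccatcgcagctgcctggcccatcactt
Hand1: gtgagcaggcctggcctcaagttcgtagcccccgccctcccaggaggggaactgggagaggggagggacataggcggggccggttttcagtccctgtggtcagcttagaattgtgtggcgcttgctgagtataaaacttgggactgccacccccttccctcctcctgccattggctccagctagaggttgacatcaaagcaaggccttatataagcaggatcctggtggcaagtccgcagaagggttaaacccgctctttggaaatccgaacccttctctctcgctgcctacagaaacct
Synpo2l: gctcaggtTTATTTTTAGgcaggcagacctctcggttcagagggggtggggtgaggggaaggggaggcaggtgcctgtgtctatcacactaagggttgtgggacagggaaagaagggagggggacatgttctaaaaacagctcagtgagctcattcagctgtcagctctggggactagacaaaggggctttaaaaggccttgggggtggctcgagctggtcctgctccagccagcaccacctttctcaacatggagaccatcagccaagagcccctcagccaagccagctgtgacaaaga
Xirp1: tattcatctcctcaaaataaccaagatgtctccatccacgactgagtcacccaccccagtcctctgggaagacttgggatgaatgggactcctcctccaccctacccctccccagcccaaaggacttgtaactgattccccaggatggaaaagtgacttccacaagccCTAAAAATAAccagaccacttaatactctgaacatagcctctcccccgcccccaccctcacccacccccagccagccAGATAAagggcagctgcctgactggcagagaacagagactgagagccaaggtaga
Srf: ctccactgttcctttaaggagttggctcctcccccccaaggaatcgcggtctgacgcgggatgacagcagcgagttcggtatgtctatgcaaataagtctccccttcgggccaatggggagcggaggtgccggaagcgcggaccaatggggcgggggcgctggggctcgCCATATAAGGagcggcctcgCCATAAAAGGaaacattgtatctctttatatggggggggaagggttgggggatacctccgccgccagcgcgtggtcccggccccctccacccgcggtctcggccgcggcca

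Nppb held 2 GATA matches and 1 M-CAT match, Synpo2l 1 MEF2 match, Xirp1 1 GATA and 1 MEF2 match, and Srf 2 CArG matches. The Hand1 window held none of these letters. Of the differentially expressed genes (DEGs, by the thresholds given with their count), 129 of the 209 higher in the LV and 235 of the 327 lower in the LV had a window under the same symbol, of which the first listed was used. A GATA match was present in 18.9% of all 33469 windows, in 14.7% of those of the genes higher in the LV and in 12.3% of those of the genes lower in the LV. For M-CAT the shares were 14.2%, 10.9% and 11.5%. For MEF2 they were 3.29% of all windows, 2 of 129 and 11 of 235 (4.68%). The 11 were Alpk3, Ankrd40, Fbxo40, Klhl41, Myadml2, Slmap, Synpo2l, Tecrl, Tnni3k, Usp13 and Xirp1. For CArG they were 1.64% of all windows, 1 of 129 and 6 of 235. All 33469 windows include more than 1 for some genes, such as 3 for Xirp1, while the DEGs were counted with 1 window a symbol. These matches are letters in a window of fixed length and were not tested.

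The 6 sham libraries held between 14121713 and 15898049 reads on genes, recovered from the deposited FPKM, with 17179 to 17807 genes above 0. The 15 cardiomyocyte markers, of which 1 was a DEG (lower in the LV), stood at a summed 33200 to 35900 FPKM in sham LV and 29000 to 34100 in sham RV, and none was at 0 in all of them. Sham RV replicate 1 stood apart by atrial genes. Sln, the sarcolipin of atrial muscle, was at 97.7 FPKM there and at 0.678 or less in the other 5 sham libraries, and Bmp10, a growth factor of the atrial wall, was at 12.6 FPKM against 0.152 or less. Both genes were higher still in VO RV replicate 2, at 388 and 72.5 FPKM. Sham LV replicate 2 had the lowest mitochondrial share of reads, 14.4% against 26.2% and 23.8% in the other LV libraries and 17.3% to 21.6% in sham RV. The median log2 deviation of its cardiomyocyte markers from their mean over the 12 libraries was −0.306. It was 0.0375 and 0.123 in the other LV libraries and −0.195 to 0.0956 in sham RV. Y-linked genes were present in replicates 1 and 2 and near 0 in replicate 3 of both sham LV and sham RV. Medians of several gene lists are also given without sham RV replicate 1.

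The 2 sham ventricles differed in 536 DEGs among 13910 tested genes (3.85%), with 209 (1.5%) higher and 327 (2.35%) lower in the LV. A DEG needed a Benjamini-Hochberg adjusted p under 0.05 from limma and a fold change over 1.3, and log2 fold changes are LV minus RV on the scale of log2(FPKM + 0.5), which understates the change of low genes. The genes lower in the LV differed more, with a median of 1.79-fold against 1.58-fold for those higher, and 95 against 34 of them passed 2-fold. In 535 of the 536 the 3 LV libraries did not overlap the 3 RV libraries. Over all tested genes this was so for 2163 genes higher in the LV (15.5%) and 2325 lower (16.7%). For a single gene the exact two-sided permutation test of 3 libraries against 3 cannot go below 0.10.

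The adjusted p-values were close to the threshold. The smallest was 0.00906, reached by Wnt9a, a secreted Wnt ligand (log2 fold change −1.25), and a U6 small nuclear RNA gene among others. The U6 gene, 109 bases long, was at 1.79, 2.83 and 1.99 FPKM in sham LV and at 0 in sham RV. At that length and level it rested on few reads, in libraries of polyadenylated RNA. In all, 4 genes were under 0.03. At the unadjusted p and the same fold, 2478 genes (17.8%) passed, 1139 higher (8.19%) and 1339 lower (9.63%). The count of 536 fell to 3 without sham LV replicate 1, to 1 without sham LV replicate 2, to 0 without sham RV replicate 1, to 4 without sham RV replicate 2 and to 185 without sham RV replicate 3. Leaving out a VO library gave 173 (VO LV replicate 1), 5 (VO LV replicate 2) and 872 (VO RV replicate 3), since all 12 libraries share 1 estimate of the spread. Without sham RV replicate 1, 1823 genes still passed at the unadjusted p and the smallest adjusted p was 0.0803. All 536 DEGs kept their direction and an unadjusted p under 0.05 when each of the 6 sham libraries was left out in turn, which their choice on the same libraries largely fixes.

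**Figure D1:**
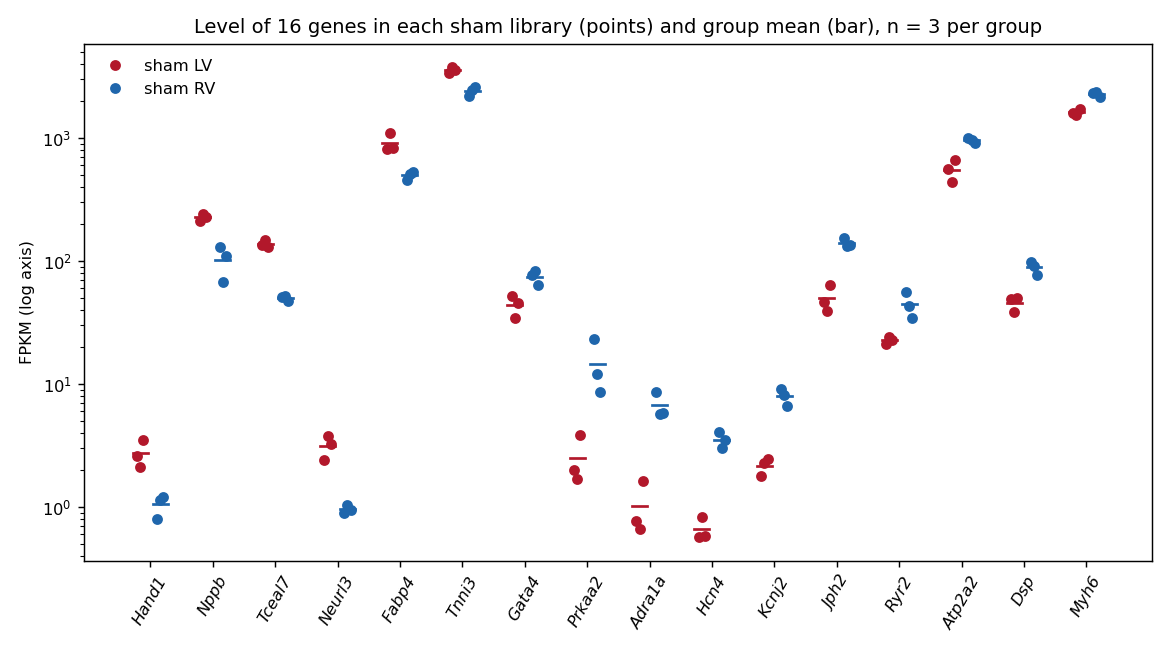
FPKM (log axis) of 16 named genes in each of the 3 sham LV libraries (red points) and 3 sham RV libraries (blue points), with the group mean as a bar. The groups overlap for none of these genes, with Nppb at 211 to 240 FPKM in the LV against 67.1 to 130 in the RV, and Jph2 at 39.5 to 64.2 against 131 to 155.

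The largest rises in the LV among the named protein-coding DEGs included a natriuretic peptide, transcription factors and genes of leukocytes. Nppb, which encodes B-type natriuretic peptide, a hormone released by stretched ventricular muscle, was at 211, 240 and 229 FPKM in the 3 sham LV libraries and at 130, 67.1 and 110 in the 3 sham RV libraries. The LV libraries lay close together and above every RV library, and the log2 fold change was 1.20 (SE 0.23, adjusted p = 0.0325 from limma). Its partner Nppa, the atrial form, was at 519, 844 and 952 FPKM in sham LV and at 625, 64.2 and 133 in sham RV. Sham RV replicate 1, the library with atrial genes, lay within the LV range, and Nppa did not pass (log2 fold change 2.09, SE 1.19, adjusted p = 0.284). Without that library its log2 fold change was 3.0 on the same scale.

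Hand1, the transcription factor of the left ventricular wall, was at 2.58, 2.10 and 3.48 FPKM in sham LV and at 0.802, 1.13 and 1.21 in sham RV. All LV libraries were above all RV libraries (log2 fold change 1.04, SE 0.18, adjusted p = 0.0319 from limma). Its relative Hand2, known for its role in the RV, averaged 14.8 ± 5.15 FPKM in the LV (SD, n = 3) against 14.0 ± 0.99 in the RV, with overlapping libraries. Tceal7, a small member of a family of transcription elongation factor-like proteins, had the widest gap between the groups of the named genes higher in the LV, with 134, 149 and 129 FPKM against 50.5, 51.6 and 46.8. Within each ventricle its libraries were nearly level, and the log2 fold change was 1.46 (SE 0.23, adjusted p = 0.0319).

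Neurl3, a ubiquitin ligase, was higher in the LV at 2.39, 3.80 and 3.23 FPKM against 0.889, 1.03 and 0.939. The LV and RV libraries were apart, and the log2 fold change was 1.31 (SE 0.23). Other named rises were Sfn, the 14-3-3 protein sigma (1.51), Hcst, a signalling adaptor of killer and T cells (1.20), Gnrh1, gonadotropin-releasing hormone (1.17), S100a8, a calcium-binding protein of neutrophils (1.14), Dpep2, a dipeptidase (1.08), Ager, a receptor abundant in lung (1.07), and Mgst2, a glutathione transferase (1.03).

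Among the 12 largest named falls in the LV were genes of several kinds. Prkaa2, the muscle form of the catalytic subunit of AMP-activated kinase, was at 2.01, 1.67 and 3.87 FPKM in sham LV and at 23.0, 12.1 and 8.58 in sham RV. Adra1a, an alpha-1 adrenergic receptor, was at 0.766, 0.665 and 1.63 FPKM against 8.52, 5.70 and 5.84. Every RV library was well above every LV library for both, and sham RV replicate 1 was the highest of the 6. Without it the log2 fold changes were the least of those with 1 sham library left out, −1.90 and −2.10 against −2.28 and −2.27 with all libraries (SE 0.44 and 0.33, adjusted p = 0.0332 and 0.0319 from limma).

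Chrm2, the muscarinic receptor through which the vagus nerve slows the heart, was at 4.48, 3.63 and 6.06 FPKM in sham LV and at 30.5, 19.5 and 13.5 in sham RV (log2 fold change −2.0, SE 0.41). Epha3, a receptor of ephrins, was at 0.507, 0.310 and 0.328 FPKM against 4.80, 3.98 and 2.64 (−2.26, SE 0.37). In both genes the order of the RV libraries was the same as for Prkaa2, with replicate 1 the highest and replicate 3 the lowest. Alpk2, an alpha-kinase (−1.68), Pcdh7, a protocadherin (−1.72), Ntn1, an axon guidance cue (−1.76), and MGC94199 (−2.16) were the other named falls of this size.

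Chamber transcription factors were tested for 41 genes, of which 1 was a DEG higher and 5 lower in the LV, with a median log2 fold change of −0.19 against 0.01 over all tested genes. Hand1 was the one that was higher. Gata4, which opens cardiac promoters with Nkx2-5 and Tbx5, was at 51.6, 34.4 and 45.7 FPKM in sham LV and at 77.3, 82.1 and 64.0 in sham RV (log2 fold change −0.77, SE 0.15, adjusted p = 0.0343). The libraries did not overlap, and the lowest was sham LV replicate 2. Srf (−0.73), its cofactor Myocd (−0.85), Mef2d (−0.67) and Meis2 (−1.11) were also lower in the LV. Tbx20 was at 13.1, 7.57 and 15.8 FPKM against 70.9, 48.0 and 24.7. The 3 RV libraries were far apart, and it missed the threshold (−1.87, SE 0.49, adjusted p = 0.0540). Tbx5 (−1.0, adjusted p = 0.121), Nkx2-5 (−0.18, adjusted p = 0.342) and Irx4, a ventricular factor (0.07, adjusted p = 0.835), did not pass.

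Genes that move calcium in the muscle cell were lower in the LV wherever they passed. Of 53 tested, 0 were DEGs higher and 8 lower in the LV, 21 had all LV libraries below all RV libraries, and the median was −0.18. Jph2, the junctophilin that ties the T-tubule to the sarcoplasmic reticulum, was at 46.3, 39.5 and 64.2 FPKM in sham LV and at 155, 131 and 135 in sham RV (log2 fold change −1.51, SE 0.27, adjusted p = 0.0319 from limma). Slc8a1, the sodium-calcium exchanger of the surface membrane, was at 12.6, 11.3 and 18.5 FPKM against 72.6, 48.5 and 39.3 (−1.87, SE 0.38). Ryr2, the calcium release channel of the reticulum, was at 21.2, 24.0 and 22.7 FPKM against 55.8, 43.4 and 34.6 (−0.94, SE 0.19). No LV library reached an RV library in these 3 genes, and sham RV replicate 1 was the highest of the 6 in each.

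The calcium pump of the reticulum, Atp2a2 (SERCA2), was at 559, 437 and 657 FPKM in sham LV and at 1002, 969 and 906 in sham RV (log2 fold change −0.82, SE 0.19, adjusted p = 0.0423). The groups were apart, with sham LV replicate 2 the lowest. Cacnb2, a subunit of the L-type channel (−1.12), Srl, sarcalumenin (−0.76), and the mitochondrial transporters Letm1 (−0.66) and Mcu (−0.56) were the others. The pore of that channel, Cacna1c, averaged 20.0 ± 1.65 FPKM in the LV (SD, n = 3) against 22.0 ± 1.36 in the RV, and phospholamban, Pln, the brake on the pump, 1409 ± 308 and 1477 ± 113. Neither passed (adjusted p = 0.558 and 0.797), and their libraries overlapped.

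Among 67 ion channels, pumps and gap junction genes, 2 were DEGs higher and 7 lower in the LV, with a median of −0.07 that lay between −0.12 and −0.01 with 1 sham library left out. Kcnj2, the main inward rectifier that holds the resting potential, was at 1.78, 2.28 and 2.45 FPKM in sham LV and at 9.16, 8.06 and 6.61 in sham RV (log2 fold change −1.66, SE 0.24, adjusted p = 0.0319), and its partner Kcnj12 at 3.87, 3.62 and 4.11 against 12, 9.39 and 8.24 (−1.24). Hcn4, the pacemaker channel, was at 0.566, 0.827 and 0.576 FPKM against 4.06, 3.01 and 3.53 (−1.80, SE 0.28). All RV libraries were above all LV libraries in these 3 channels. Gja3, a connexin (−1.48), fell too, and Gja4, a connexin of arterial endothelium (0.61), and Fxyd6 (0.41) rose. Kcnj3, an acetylcholine-gated channel of atrial muscle, was at 1.14, 0.911 and 1.07 FPKM against 8.72, 5.71 and 3.61 but missed the threshold (−2.01, SE 0.53, adjusted p = 0.0549). Gja1 (connexin 43) and Kcnq1 had log2 fold changes of −0.76 and −0.42 and did not pass (adjusted p = 0.0658 and 0.126).

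Adrenergic and cyclic nucleotide signalling gave 1 DEG higher and 10 lower in the LV among 58 tested genes, with a median of −0.29 (−0.17 without sham RV replicate 1). Adrb1, the main beta-adrenergic receptor of cardiac muscle, was at 8.26, 9.20 and 11.6 FPKM in sham LV and at 15.7, 17.5 and 16.1 in sham RV (log2 fold change −0.74, SE 0.15, adjusted p = 0.0361 from limma). Adcy5, the adenylyl cyclase that it drives, was at 27.4, 28.6 and 29.5 FPKM against 56.7, 53.7 and 49.9 (−0.90, SE 0.16). The ventricles were apart in both, and the 3 libraries of each were close. The anchor protein Akap6 (−1.30), the kinase subunit Prkar2a (−1.09), the regulators Rgs2 (−0.85) and Rgs6 (−0.99) and the phosphodiesterase Pde4a (−0.59) were lower in the LV, while Pde2a was higher (0.38). Pde3a averaged 8.13 ± 1.27 FPKM in the LV (SD, n = 3) against 14.9 ± 3.84 in the RV and did not pass (adjusted p = 0.0618).

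**Figure D2:**
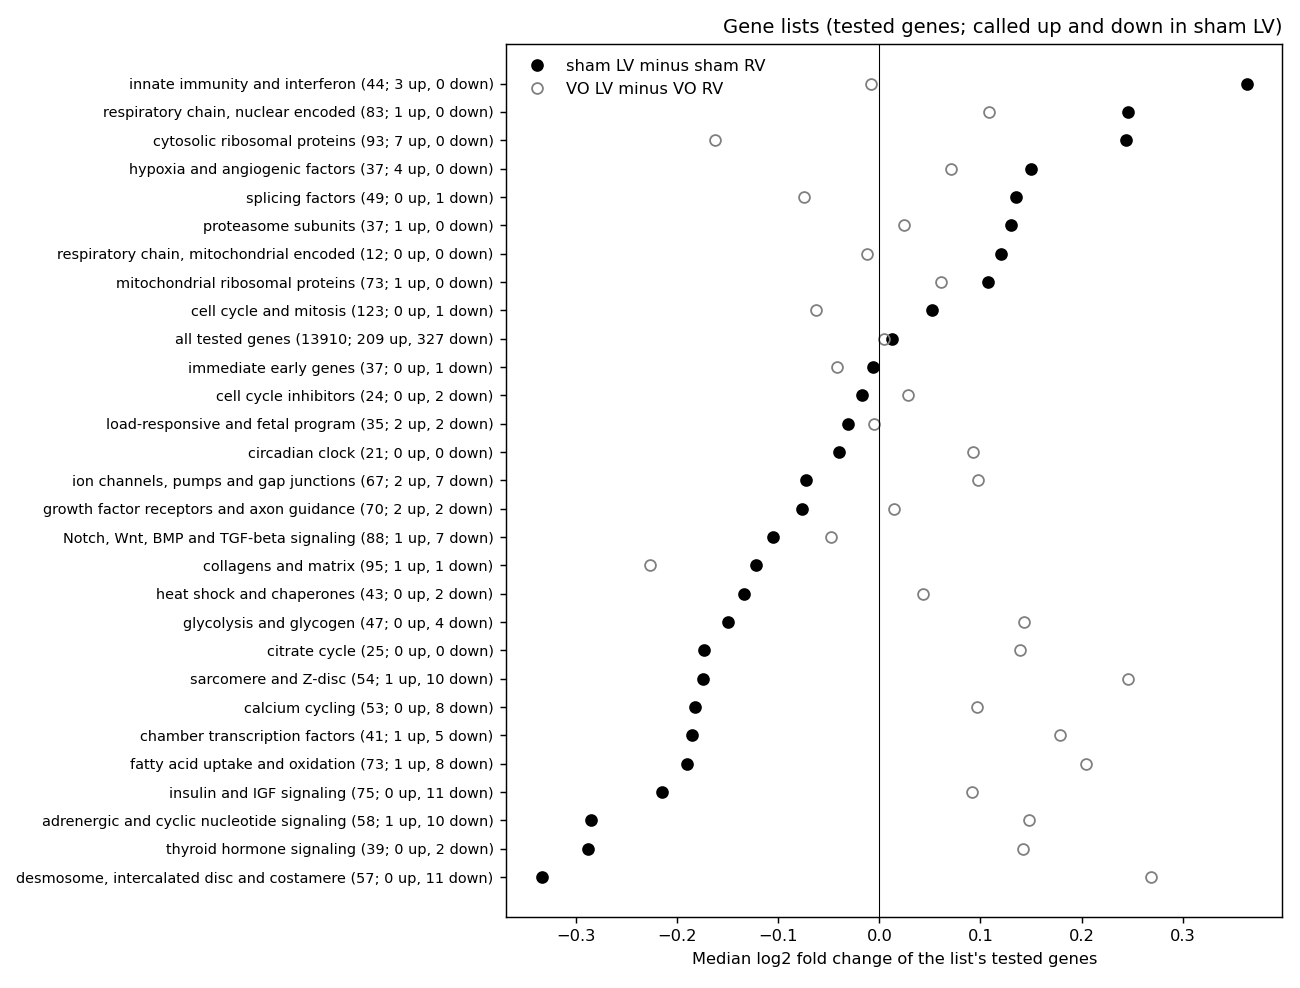
Median log2 fold change of the tested genes of each of 28 gene lists and of all tested genes, LV minus RV, in sham (filled) and VO libraries (open); labels give the genes tested and the DEGs higher (up) and lower (down) in sham LV. The list of desmosome, intercalated disc and costamere genes is lowest in sham (−0.33) and among the highest in VO (0.27), while all tested genes stand at 0.01 in both.

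Of 54 sarcomere and Z-disc genes, 1 was a DEG higher and 10 lower in the LV, and 20 were above 0. The median was −0.17, and −0.29 with quantile scaling. Smyd1, a methyltransferase that assembles myosin, was at 21.7, 18.4 and 25.7 FPKM in sham LV and at 95.8, 69.4 and 52.3 in sham RV (log2 fold change −1.67, SE 0.29, adjusted p = 0.0319 from limma). Synpo2l, a Z-disc protein, was at 23.0, 13.8 and 28.9 FPKM against 89.2, 73.4 and 61.0 (−1.79, SE 0.30). Xirp1, which binds actin at the intercalated disc, was at 20.7, 15.5 and 23.6 FPKM against 39.7, 37.8 and 37.8 (−0.95, SE 0.18). All 3 genes were lowest in sham LV replicate 2, and none overlapped between ventricles.

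The others were the kinases Alpk3 (−0.75) and Mylk3 (−0.81), the actin-binding proteins Flnc (−0.78), Pdlim5 (−0.83), Fhod3 (−0.71) and Klhl41 (−0.61), and Myo18b (−0.54); beta-tropomyosin, Tpm2, was higher (0.70). Among the main filament genes, Myh6, the alpha-myosin heavy chain, was at 1592, 1544 and 1706 FPKM in sham LV and at 2323, 2355 and 2165 in sham RV (log2 fold change −0.50, adjusted p = 0.0538), and Myh7, the beta form, 823 ± 31.1 against 1133 ± 116 FPKM (SD, n = 3; adjusted p = 0.0674). Tnni3, cardiac troponin I, which replaces the slow form Tnni1 after birth, was at 3384, 3740 and 3599 FPKM against 2177, 2464 and 2581 (0.57, adjusted p = 0.104). These 3 genes did not overlap between ventricles. Tnni1 (0.06), Actc1 (−0.14), Mybpc3 (0.04), Myl2 (0.07) and Acta1 (0.23) had overlapping libraries.

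The cell junction and membrane anchor genes showed the lowest median of the lists of biology. Of 57 desmosome, intercalated disc and costamere genes, 0 were DEGs higher and 11 lower in the LV, 48 had a log2 fold change below 0 (6729 of 13910 over all genes), and 34 had all LV libraries below all RV libraries. Dsp, the desmosomal protein desmoplakin, was at 48.8, 38.5 and 50.2 FPKM in sham LV and at 97.4, 91.1 and 76.9 in sham RV (−0.94, SE 0.18, adjusted p = 0.0325 from limma). Its partner Dsg2 was 10.7 ± 1.39 against 18.0 ± 2.20 FPKM (SD, n = 3; −0.72). No LV library reached an RV library in either. Sspn (−1.59), Sgcd (−1.19) and dystrophin itself, Dmd (−0.59, adjusted p = 0.0584), belong to the complex that ties the sarcomere to the matrix, and of these the first 2 passed. Ctnna3 (−1.42 in 1 of its 2 entries), Sptb (−1.35), Ank2 (−1.21), Ank3 (−0.65) and Popdc2 (−0.82) were also lower, while Pkp2 did not pass (−0.14, adjusted p = 0.575).

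Insulin signalling gave 0 DEGs higher and 11 lower in the LV among 75 tested genes, with a median of −0.21. Insr, the insulin receptor, was at 5.42, 5.11 and 6.43 FPKM in sham LV and at 12.3, 10.6 and 9.55 in sham RV (log2 fold change −0.88, SE 0.15, adjusted p = 0.0319 from limma). Its docking protein Irs1 was at 1.28, 0.875 and 1.25 FPKM against 2.76, 2.13 and 2.43 (−0.85), and the kinase Akt2 at 40.2, 34.7 and 49.3 against 63.9, 60.4 and 65.2 (−0.62). The 3 steps of the pathway were each apart between ventricles. Foxo6 (−0.89), Eif4ebp2 (−0.96), Inppl1 (−0.68) and Rptor (−0.40) were lower as well. The growth factors Igf1 and Igf2 and the insulin-regulated glucose carrier Slc2a4 did not pass, with log2 fold changes of −0.31, −0.15 and −0.21 and overlapping libraries. The thyroid hormone list had 0 DEGs higher and 2 lower, Atp2a2 and the coactivator Ncoa2 (−0.96), among 39 genes with a median of −0.29; the receptors Thra (−0.35, adjusted p = 0.0641) and Thrb (−0.66, adjusted p = 0.119) did not pass.

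Fatty acid use gave 1 DEG higher and 8 lower in the LV among 73 tested genes (median −0.19). Ppara, the nuclear receptor that turns on fatty acid oxidation, was at 2.32, 3.80 and 2.75 FPKM in sham LV and at 6.48, 5.92 and 6.10 in sham RV (log2 fold change −0.97, SE 0.18, adjusted p = 0.0325 from limma). The coactivators Ppargc1a (−0.78) and Ppargc1b (−0.81) fell with it. Acsl1, which activates fatty acids, was at 122, 94.1 and 114 FPKM against 160, 175 and 147 (−0.55, adjusted p = 0.0462). All RV libraries were above all LV libraries in these 4 genes. Crat (−0.72), Hadh (−0.84), Hadhb (−0.61) and Acadsb (−0.67) were the other falls, and Fabp4, a fatty acid carrier of the endothelium, the single rise. Cpt1b, the gate into the mitochondrion, Acadm and Cd36 did not pass (−0.40, −0.21 and 0.06).

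Of 47 glycolysis and glycogen genes, 0 were DEGs higher and 4 lower in the LV (median −0.15). Among the 4 were Pygb, which breaks glycogen down (−1.07), Pfkp (−0.58) and Slc16a1, a lactate carrier (−0.97). Pfkm, the muscle phosphofructokinase, averaged 93.6 ± 11.8 FPKM in the LV (SD, n = 3) against 128 ± 2.43 in the RV without passing (adjusted p = 0.0620). None of the 25 citrate cycle genes was a DEG by limma, although 7 passed at the unadjusted p and the median was −0.17. Ogdh, a rate-setting enzyme of the cycle, was at 11.6, 7.88 and 20.9 FPKM against 53.0, 37.4 and 29.2 (−1.60, SE 0.41, adjusted p = 0.0508).

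Ribosomal protein genes were higher in the LV where they passed, and the respiratory chain genes had a median above 0. Of 93 cytosolic ribosomal protein genes, 7 were DEGs higher and 0 lower in the LV, and 81 were above 0 (7181 of 13910 over all genes), with a median of 0.24. Rps29 was at 1754, 1585 and 1722 FPKM in sham LV and at 1009, 1047 and 1177 in sham RV (log2 fold change 0.65, SE 0.12, adjusted p = 0.0325 from limma), and Rpl37 at 195, 218 and 230 against 134, 132 and 141 (0.65). The libraries were apart in both, and reads of such genes may be split with near-identical copies, of which the list holds several. Of 83 nuclear-encoded respiratory chain genes, 1 was a DEG higher (Ndufa4l2, 0.80, known to be induced by low oxygen) and 69 were above 0, with a median of 0.25. The mitochondrial ribosome list (73 tested) had a median of 0.11, or 0.01 without sham RV replicate 1, and the proteasome list (37 tested) a median of 0.13. In these lists 55 and 31 genes were above 0. Each held 1 DEG, Mrps18c (0.53) and Psmb7 (0.56), both higher in the LV, against 209 of 13910 (1.5%) over all tested genes. None of the 12 mitochondrially encoded genes passed by limma, and 0 did at the unadjusted p; their median was 0.12, and it lay between −0.07 and 0.47 with 1 sham library left out.

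Gene length moved with these differences. With the tested genes split by length into 5 bins of equal number, the shortest (42 to 1125 bases) had a median log2 fold change of 0.17 with 74 DEGs higher and 34 lower in the LV. The longest (3857 to 29464 bases) had a median of −0.08 with 22 higher and 112 lower. The median length was 1599 bases for DEGs higher in the LV, 2737 for those lower and 2166 for all tested genes. With the length trend of each library removed, the DEGs numbered 469. The median of the cytosolic ribosomal proteins, whose own median length was 552 bases, went from 0.24 to 0.10, and that of the respiratory chain from 0.25 to 0.10. Those of the mitochondrial ribosome and the proteasome went from 0.11 and 0.13 to 0.03 and 0.07. Of the lists with a median below 0, the calcium, desmosome and insulin lists with the length trend removed were at −0.16, −0.31 and −0.20, and the thyroid hormone, adrenergic, ion channel and Notch lists moved from −0.29, −0.29, −0.07 and −0.11 to −0.17, −0.19, −0.04 and −0.06. With quantile scaling in place of length removal, the ribosomal and respiratory chain medians were 0.08 and 0.12. The part of length in the differences was not tested.

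**Figure D3:**
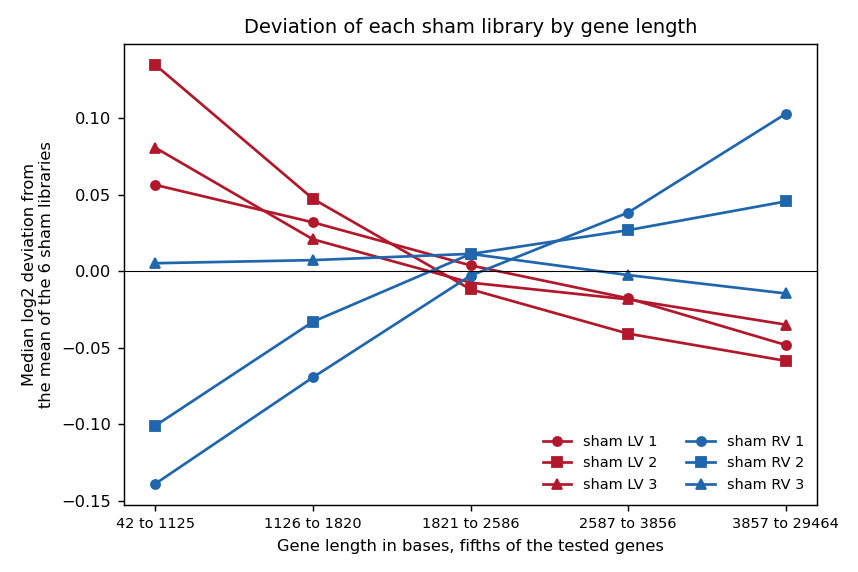
Median log2 deviation of each sham library from the mean of the 6 sham libraries, for 5 bins of the tested genes by gene length in bases (LV red, RV blue). In the bin of the shortest genes the 3 LV libraries lie at 0.06 to 0.14 and sham RV replicates 1 and 2 at −0.14 and −0.10, with sham RV replicate 3 near 0.

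Of 15 tested endothelial markers, 6 were DEGs higher and 0 lower in the LV, 13 were above 0, the median was 0.42, and the summed level was 1730 to 2030 FPKM in sham LV and 1110 to 1240 in sham RV. Fabp4, of capillary endothelium, was at 813, 1100 and 823 FPKM against 451, 507 and 533 (log2 fold change 0.86, SE 0.17, adjusted p = 0.0356 from limma). Esam, an adhesion molecule of endothelial junctions, was at 70.0, 73.2 and 65.3 FPKM against 42.5, 46.1 and 48.5 (0.60, SE 0.11). The LV libraries were all above the RV libraries in both. Tie1 (0.54), Emcn (0.56), Aqp1 (0.48) and Kdr, the receptor of VEGF (0.42), were the others, while the pan-endothelial Tek, Eng and Vwf did not pass (0.16, 0.18 and −0.06). In whole tissue, more cells of a type and more RNA per cell cannot be told apart.

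Angiogenic and hypoxia genes had 4 DEGs higher and 0 lower in the LV among 37 (median 0.15), namely Kdr, Tie1, Cxcr4 (0.71) and Vegfc (0.65). Vegfa was at 161, 221 and 131 FPKM in sham LV and at 84.9, 101 and 132 in sham RV. Sham LV replicate 3 and sham RV replicate 3 were level, and it did not pass (0.68, adjusted p = 0.124). 

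Red blood cell genes had a median above 0 without passing. All 10 tested red blood cell genes were above 0 with a median of 0.68 and a summed level of 13400 to 17400 FPKM in sham LV against 6780 to 11400 in sham RV; 0 passed by limma and 6 did at the unadjusted p. Of 18 leukocyte markers, 2 were DEGs higher and 0 lower (S100a8 and Cd79a, of B cells, 1.06), 17 were above 0, and the sums were 121 to 137 FPKM against 88.4 to 97.6. Innate immunity and interferon genes gave 3 DEGs higher and 0 lower among 44 (median 0.36), with 37 above 0. They were Casp4, an inflammatory caspase, at 8.51, 8.22 and 7.32 FPKM against 4.65, 4.67 and 5.28 (0.66), Bst2 (0.93) and Rsad2 (0.67). Ager and Ttr were the DEGs among 3 tested lung and liver markers; the sum of that list was 24.1 to 28.8 FPKM against 14.5 to 19.2, and 3 of its 15 genes were at 0 in all sham libraries. The part of blood or of adjacent tissue in these differences was not tested.

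**Figure D4:**
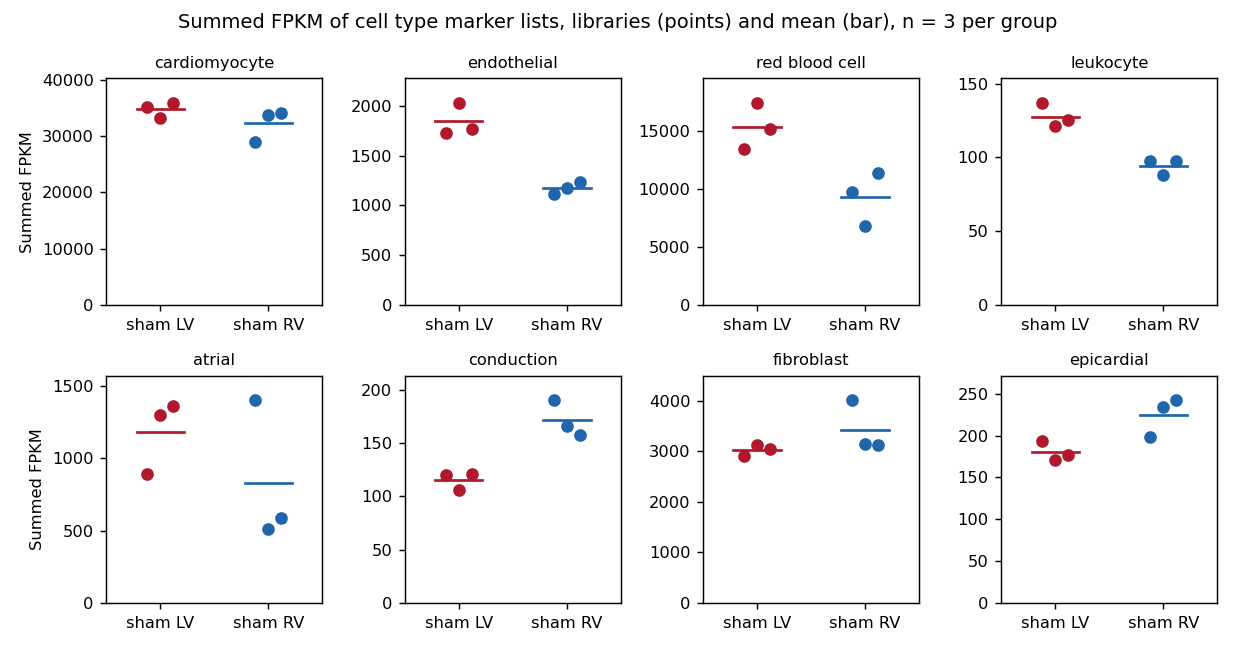
Summed FPKM of 8 lists of cell type markers in each sham library (points) with the group mean (bar), LV red and RV blue. The endothelial, red blood cell and leukocyte sums are higher in all 3 LV libraries, the conduction sum is lower (106 to 121 against 158 to 190 FPKM), and the atrial sum of sham RV replicate 1 (1400 FPKM) stands above those of the other 2 RV libraries (508 and 586).

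Conduction system and atrial markers were lower in the LV where they passed. Of 12 conduction genes, 3 were DEGs lower (Hcn4, Rgs6 and Igfbp5) with a median of −0.43. Igfbp5, an IGF-binding protein, was at 60, 47.9 and 66.1 FPKM against 106, 97.7 and 88.1. The conduction genes Gja5 (0.02) and Tbx3 (0.44) did not pass. Of 16 atrial genes, Dkk3 alone was a DEG (−0.73), and the median went from −0.78 to −0.36 without sham RV replicate 1. Of 14 epicardial markers, Wt1 was a DEG, higher in the LV at 15.6, 15.7 and 15.2 FPKM against 10.2, 10.8 and 10.3 (log2 fold change 0.55, adjusted p = 0.0364), although the median of the list was −0.54. Msln, of the outer cell layer, was at 6.52, 2.51 and 5.62 FPKM against 12.2, 16.1 and 15.0 (adjusted p = 0.0917). Fibroblast (16 tested), pericyte and smooth muscle (15) and endocardial (9) markers held 0 DEGs by limma, with 2, 4 and 3 at the unadjusted p and medians of −0.15, 0.33 and −0.28 (−0.08, 0.42 and −0.18 without sham RV replicate 1). Schwann cell and neuron (8 tested), skeletal muscle (6), thymus (4), fat (4) and Y-linked (4) genes also held 0 DEGs by limma, with 1, 1, 0, 0 and 0 at the unadjusted p.

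Of 123 cell cycle genes, 1 was a DEG by limma, and 6 passed at the unadjusted p, with a median of 0.05 (0.02 without sham RV replicate 1). It was Ccnd2, cyclin D2, at 19.0, 20.6 and 31.2 FPKM in sham LV and at 98.9, 67.9 and 57.1 in sham RV (log2 fold change −1.64, SE 0.34, adjusted p = 0.0361). Mki67, the mark of cycling cells, averaged 12.3 ± 1.07 FPKM in the LV (SD, n = 3) against 12 ± 0.658 in the RV, and Top2a 17.7 ± 1.70 and 20.5 ± 1.82. Of 24 cell cycle inhibitors, Meis2 and Tob2 (−0.89) were lower.

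Among 88 genes of the Notch, Wnt, BMP and TGF-beta pathways, 1 was a DEG higher (Dll4, the Notch ligand of arterial cells, 0.68) and 7 lower in the LV, among them the Wnt receptor Fzd1 (−1.02), the polarity protein Celsr1 (−1.42), Bmp7 (−1.14) and its receptor Bmpr1a (−0.95), with a median of −0.11 (−0.04 without sham RV replicate 1). Among 70 growth factor and guidance genes, Kitlg, stem cell factor (0.58), and Efna1, an ephrin (0.57), were higher and Epha3 and Ntn1 lower. Erbb4, the neuregulin receptor of cardiac muscle, was at 0.377, 0.228 and 0.228 FPKM against 2.22, 1.32 and 0.709 and missed the threshold (−1.23, SE 0.33, adjusted p = 0.0565). Of 95 matrix genes (median −0.12, or −0.02 without sham RV replicate 1), Timp4 was higher (0.74) and Col4a4 lower (−0.82), while the main fibrillar collagens Col1a1 and Col3a1 had log2 fold changes of −0.20 and −0.12 with overlapping libraries.

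Of 35 load-responsive and fetal genes, Nppb and Mt1, a metallothionein (0.94 in 1 of its 2 entries), were higher and Xirp1 and Igfbp5 lower in the LV; Ankrd1, a stretch-induced Z-disc protein, was at 668, 510 and 604 FPKM against 862, 849 and 853 (−0.53, adjusted p = 0.0508). Of 37 immediate early genes Dusp5 alone was a DEG (−1.02), with Fos, Egr1 and Jun at −0.18, −0.06 and −0.10. None of 21 clock genes was a DEG by limma (2 at the unadjusted p). Of 43 chaperones Hspa9 (−0.93) and Dnaja4 (−0.68) were lower, and of 49 splicing factors Celf1 (−0.84), while Rbm20, the titin splicing factor, did not pass (−0.43, adjusted p = 0.0531).

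The VO walls share no library with the sham walls and gave a further reading of the same genes. This reading was not fully separate. The VO libraries entered the choice of the sham DEGs through the shared estimate of the spread and the filter on mean FPKM. Y-linked genes were present in 0 of 3 VO LV and 1 of 3 VO RV libraries, against 2 of 3 in each sham group. That library was VO RV replicate 3, with a Y-linked sum of 56.1 FPKM against 0.351, 0.266 and 0.296 in VO LV. It therefore did not come from the same heart as VO LV replicate 3. The part of sex was not tested, either between VO LV and VO RV or in the comparison of sham with VO. By limma 1 gene was a DEG between VO LV and VO RV, and 1030 genes (7.4%) passed at the unadjusted p and the fold. That gene was Hand1, at 5.21, 4.10 and 4.71 FPKM in VO LV and at 0.318, 0.316 and 0.345 in VO RV (log2 fold change 2.64, adjusted p = 0.000171). Its difference between ventricles was larger in VO than in sham by 1.60 on the log2 scale (adjusted p = 0.0249 for the difference).

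Of the 536 sham DEGs, 157 (29.3%) had the same sign in VO, against 37.0% of all tested genes. This held for 121 of the 209 higher in the LV (57.9%) and for 36 of the 327 lower. At the unadjusted p, 24 passed in VO in the same direction, 13 higher and 11 lower, and 129 in the opposite direction, of which 124 were lower in sham LV. Leaving out VO LV replicate 3 or VO RV replicate 3 brought the 129 to 56 and 47 and the 24 to 33 and 37. Leaving out VO RV replicate 2, the library with the most atrial RNA, brought them to 155 and 17. The difference of the ventricle contrast between sham and VO was itself a DEG by the same thresholds for 583 of all genes (4.19%) and for 302 of the 536 (56.3%), so that most sham DEGs also differed from the VO contrast. Since these genes were selected for a large sham difference, that share is partly fixed by the selection.

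**Figure D5:**
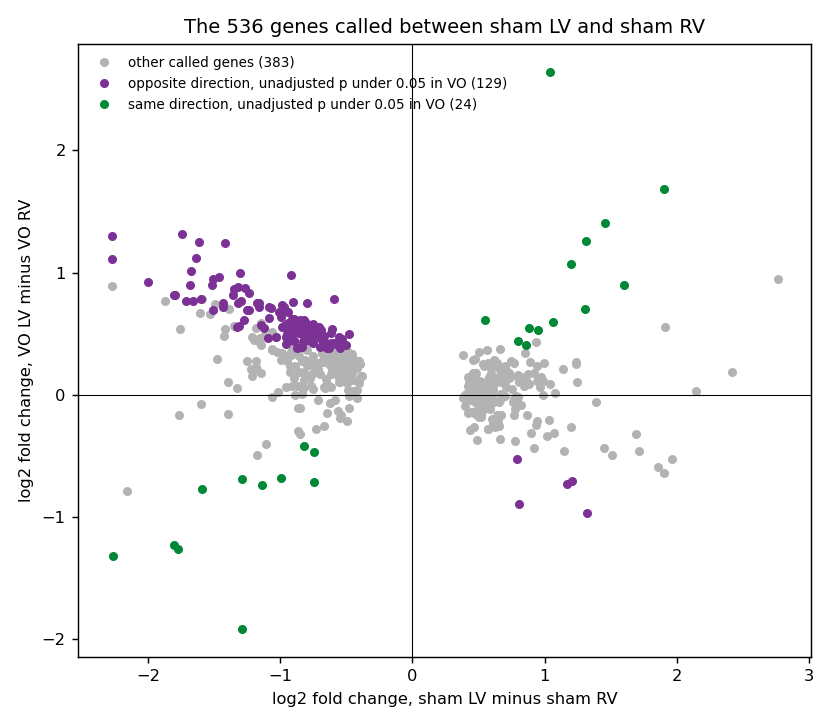
Log2 fold change LV minus RV of the 536 sham DEGs in the sham libraries (x axis) and in the VO libraries (y axis), 1 point a gene. The 24 genes past the unadjusted p in VO in the same direction (green) include Hand1 at the top right, and the 129 in the opposite direction (purple) lie almost all at the upper left.

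The 24 genes past the unadjusted p in VO in the same direction included several of those described above. Nppb was at 357, 325 and 427 FPKM in VO LV and at 160, 226 and 148 in VO RV, so that its log2 fold change was 1.07 there and 1.20 in sham. Tceal7 was at 147, 120 and 137 against 76.1, 32.1 and 52.2 (1.40 in VO, 1.46 in sham). In both genes the VO LV libraries were above the VO RV libraries. Others higher in the LV in both were Bok (0.55 in sham), Gch1 (0.80), Tmem154 (0.88), Cldn22 (0.95), Cd79a, Neurl3, LOC100912195, RGD1561551 and AABR07017268.1.

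Lower in the LV in both were Epha3, Hcn4, Corin, the protease that activates natriuretic peptides, Mpped2, Agr2, Nsg2, Rgs6, Col4a4, Igfbp5, Masp1 and AABR07029417.1. Hcn4 was at 1.15, 0.513 and 1.76 FPKM in VO LV and at 3.64, 3.81 and 2.22 in VO RV (log2 fold change −1.23, against −1.80 in sham). Corin was at 1.75, 2.40 and 1.95 FPKM in sham LV against 6.92, 5.95 and 8.66 in sham RV (−1.59), and at 3.57, 2.97 and 5.83 against 7.08, 12.6 and 3.97 in VO, where the groups overlapped. Mpped2, a metallophosphoesterase, was at 5.27, 3.84 and 5.14 FPKM against 13.2, 11.3 and 12.3 in sham (−1.29, adjusted p = 0.0257) and kept −0.69 in VO. Among these 24 genes, the test of the difference between sham and VO passed for Hand1 alone.

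Of the 12 largest named falls, 9 had the opposite sign in VO, the exceptions being Hcn4, Epha3 and MGC94199. Slc8a1 was at 37.0, 44.1 and 72.5 FPKM in VO LV and at 35.1, 43.3 and 15.5 in VO RV. Those VO libraries overlapped, with VO LV replicate 3 the highest and VO RV replicate 3 the lowest. Jph2 was at 124, 142 and 185 FPKM in VO LV and at 106, 87.9 and 48.3 in VO RV, and Smyd1 at 57.4, 63.1 and 98.2 against 48.9, 37.3 and 23.3. For Jph2 and Smyd1 all VO LV libraries were above all VO RV libraries, the reverse of the sham libraries. The differences between the sham and VO contrasts were −2.45 for Jph2 and −2.68 for Smyd1, each with an adjusted p = 0.0249 from limma. Whether the sham and VO libraries were prepared together is not given in the sources used here.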

How the data were processed

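Free wall myocardium of sham and VO rats was sequenced with an mRNA library kit, and 12 libraries in 4 groups of 3 were used. The deposited values are FPKM per gene and library. Per the submitters' processing notes and the study's methods, reads were cleaned, aligned with HISAT2 2.0.5 and counted with featureCounts 1.5.0-p3 before the authors computed the FPKM; the genome build is not given in the sources used here, so no coordinates of it are printed. Multiplying by gene length gave whole reads for 100% of values under 200 reads (tolerance 0.02), and their sums gave the depth, 14121713 to 15898049 reads in the sham libraries. Counting error is largest for genes of low FPKM.

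FPKM were divided by median-ratio size factors, and log2(FPKM + 0.5) was fitted with limma 3.58.1 (R 4.3.3) for the 13910 of 32545 genes with a mean of at least 0.5 FPKM over all 12 libraries. One model of the 4 groups with a trended variance gave the contrast of sham LV with sham RV. DEGs had an adjusted p (Benjamini-Hochberg) below 0.05 together with a fold over 1.3. Named genes were core genes of each of 44 gene lists, the 12 largest rises and falls, the 5 called genes of each list with the smallest adjusted p, and the 10 genes a direction with the widest gap between groups; genes outside these that are named are members of the lists or of a count in the text and were chosen after their values were seen. The comparison, gene lists and alternatives were chosen with earlier results of these data known. Alternatives changed the scaling, pseudocount, filter, fit and libraries; removal of a gene length trend (lowess, span 0.3) was added after seeing the data. Same-numbered LV and RV libraries were not treated as pairs. Promoter windows came from RefSeq. Results for some genes are not reported here.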

Additional observations from a re-analysis of the deposited data

Results flagged for a closer look

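For 15 named genes the difference between LV and RV in sham was set against the same difference in VO, and the test of that difference by limma passed with an adjusted p between 0.0246 and 0.0491. On the log2 scale the sham difference minus the VO difference was −3.58 for Prkaa2, −3.39 for Adra1a, −2.93 for Chrm2, −2.68 for Smyd1, −2.63 for Slc8a1, −2.61 for Synpo2l, −2.58 for Alpk2, −2.48 for Pcdh7 and −2.29 for Ntn1. Each of these muscle or signalling genes was lower in the sham LV and had a VO difference above 0. It was 2.01 for Sfn, 1.9 for Gnrh1, 1.39 for Ager, 1.23 for Mgst2 and 1.06 for Dpep2, which were higher in sham LV. It was −1.6 for Hand1, which was higher in the LV in both and by more in VO. These genes were named for their large sham differences, so the size of the gap is partly fixed by that choice. The cause of these differences was not tested.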

How the results depend on the processing

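The number of sham DEGs depended on the libraries and the fit. In place of 536 (209 higher, 327 lower in the LV), it was 1321 (545 and 776) with array weights, 312 (96 and 216) in a fit of the 6 sham libraries alone, and 8 (2 and 6) with no filter on level. With 1 of the 12 libraries left out it lay between 0 and 872, between 0 and 299 for the genes higher and between 0 and 573 for those lower in the LV. The VO contrast lay between 1 and 48 DEGs with 1 library left out. With the replicate number as a block the sham count was 0 (0 higher and 0 lower) by limma, with 2260 genes at the unadjusted p and fold. The deviations of same-numbered sham libraries correlated at 0.0446, 0.0377 and 0.123, so the numbers were not taken as a pairing; 4 of 6 sham libraries correlated best with their own number, as a hint from the data, and the sham libraries without Y-linked RNA were replicate 3 in both ventricles. The other settings, which were the FPKM as deposited (540), a pseudocount of 0.1 (526) or 1 (519), a mean of at least 1 FPKM (597), protein-coding genes alone (676), quantile scaling (636), a robust fit (543), voom (684) and the length trend removed (469), kept the sham count within 1.5 times. Of 5764 values of named genes under these alternatives, 0 changed direction past the threshold, 4577 kept their side of it, 1085 fell below it and 102 rose above it. Of the 231 named genes 118 were DEGs, and only values of these could fall below the threshold. The values that kept their side include those of named genes that were not DEGs. Gene list medians moved beyond the spread in 38 of 1100 values. Depth limits the low genes: Hand1 rested on 36 to 51 reads in the sham LV libraries and 14 to 19 in the sham RV libraries.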
